A study of Rattus norvegicus with 30 samples.

Results

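Interferon and antigen presentation genes were examined in the adrenal glands of gonadectomized and hormone-replaced rats. The genes were taken by symbol from the probe annotation: RT1 genes of the rat major histocompatibility complex (MHC), genes named Ifi, Isg, Oas, Gbp, Irf or Stat with a number, Mx1, and the peptide suppliers Psmb8, Psmb9, Tap1 and Tap2. A probe set had to carry exactly 1 symbol, and the brightest stood for its gene. This gave 84 of 14557 genes: 23 of MHC class I, 9 of class II, 4 that supply peptides to class I, 9 interferon regulatory factors (IRF) and relatives that share their name, 6 STAT factors, 7 interferon-induced GTPases, 10 oligoadenylate synthetases and 16 other interferon-induced or Ifi-named genes. Irf1, Gbp2 and Mx2 had no probe set with a single symbol and were not analysed here. Of the 84 genes, 43 lay above the median of the array on all 30 arrays and 10 lay below it on all of them.

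Type I interferons act through a complex that holds Stat2 and Irf9 and binds to an interferon-stimulated response element in the promoters of antiviral genes such as Mx1, Isg15 and the Oas family. Interferon gamma acts at a different element and raises GTPases of the Gbp and immunity-related families and the genes of antigen presentation. Class I molecules show peptides cut by the immunoproteasome (Psmb8, Psmb9) and carried by the transporter Tap1/Tap2, and are made by nearly all cells. Class II molecules show ingested antigen and are made mainly by macrophages, dendritic cells and B cells, so that in an adrenal they are expected from resident immune cells more than from steroid-producing cells.

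Whole adrenals of adult Wistar rats, 12 weeks old when obtained, were measured on Affymetrix arrays, 1 array for each rat and 5 rats for each of 6 groups. Control males and control females were sham operated, ORX males were orchiectomized and OVX females were ovariectomized. ORX + T males received testosterone (5 mg) and OVX + E females estradiol (0.5 mg per 100 g of body weight, as was testosterone) in a depot injected under the skin 14 days after gonadectomy, and all glands were collected 4 weeks after surgery. Values are log2 signals after RMA, so a difference of 1 is a 2-fold difference. In whole glands, fewer cells of a type and less RNA per cell cannot be told apart. The markers Cyp11b1 and Cyp11a1 of cortical cells and Th and Dbh of chromaffin cells lay above the array median on all 30 arrays. So did Csf1r of macrophages, whereas the T cell markers Cd3d and Cd3e lay below it on all 30. Other markers on these lists differed. Of the T and NK cell markers, Cd4 lay above the median on all 30 arrays, Nkg7 below it on 1 and Lck on 8. The macrophage marker Marco lay below it on 11. The signals of 10 arrays were compressed (SD of all signals 1.43 to 1.60, against 1.67 to 1.75 on the other 20), with 1 such array among control males, 1 among control females and 2 in each other group. The number of arrays limits the precision. Nothing in the labels says that rats of different groups were paired.

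Promoter sequences are shown for some of the genes on which the results turn, chosen for their motif matches. For 73 of the 84 genes RefSeq gave a window from 250 bases before to 50 bases after the start in the assembly GRCr8, which comes from a Brown Norway rat and not from these Wistar rats. The first set holds genes that were high in 1 control male (below), with matches to the response element of type I interferon, searched on both strands as GAAA, any 2 bases and GAAA again, in capitals (in Oas1b and Oas1i 2 matches overlap). The stretches of 80 bases lie before the start of Irf7 (chr1:205800048-205800127, minus strand), Oas1b (chr12:41395864-41395943, minus), Oas1i (chr12:41285146-41285225, plus), Ifit3 (chr1:241527246-241527325, plus) and RT1-S3 (chr20:2675381-2675460, plus).
Irf7: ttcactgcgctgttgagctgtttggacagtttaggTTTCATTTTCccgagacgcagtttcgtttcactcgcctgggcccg
Oas1b: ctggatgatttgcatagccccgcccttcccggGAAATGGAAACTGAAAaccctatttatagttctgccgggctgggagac
Oas1i: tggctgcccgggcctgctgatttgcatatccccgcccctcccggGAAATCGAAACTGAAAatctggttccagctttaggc
Ifit3: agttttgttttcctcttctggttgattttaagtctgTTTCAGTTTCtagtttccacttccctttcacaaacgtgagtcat
RT1-S3: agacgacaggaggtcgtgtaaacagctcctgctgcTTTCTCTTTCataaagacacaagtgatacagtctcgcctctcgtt
The next set holds Ifi47 and RT1-Ba, which passed the test with estradiol, and RT1-Da, which did not. In Ifi47 (chr10:33798527-33798661, plus strand, 135 bases) the capitals mark 2 matches to the gamma-activated element, searched as TTCNNNGAA, which reads the same on both strands. In the class II genes RT1-Ba (chr20:4576976-4577055, plus) and RT1-Da (chr20:4515328-4515407, plus) they mark ATTGG, which is CCAAT read on the other strand and the core of the Y box of class II promoters.
Ifi47: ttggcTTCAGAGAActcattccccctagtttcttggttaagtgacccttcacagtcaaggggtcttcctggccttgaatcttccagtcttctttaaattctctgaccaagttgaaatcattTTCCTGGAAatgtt
RT1-Ba: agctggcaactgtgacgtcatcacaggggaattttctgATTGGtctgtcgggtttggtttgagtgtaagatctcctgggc
RT1-Da: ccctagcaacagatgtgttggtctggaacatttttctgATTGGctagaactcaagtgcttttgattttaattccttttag
Of the genes of the set more than 1 log2 unit above all other arrays in that control male, Mx1, Irf9 and Oasl had a window without a match to the interferon motif. Isg15 and Ifi27l2b had no window. Ifi47, RT1-Ba and RT1-Da also had a window without a match to the interferon motif. The interferon motif was found in 21 of the 73 genes (28.8%), and in 4.12% of all 27457 genes with a window. The gamma-activated motif was found in 12 of 73 (16.4%) and in 9.39% of all genes, and it overlapped the interferon motif in 0.0418% of the 33469 windows. CCAAT on either strand was found in the windows of all 8 class II genes that had a window, but also in 39.6% of all genes. A match describes the letters of the window and not a site in use.

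In control males, replicate 1 stood apart from all other rats in its interferon-induced genes, and it is described before the groups are compared. This pattern was noticed after the values were seen and is given as a description with no test. Irf7, the factor that amplifies the type I interferon response, was at a log2 signal of 8.84 in this rat and between 4.93 and 5.10 in the other control males. Over the other 29 arrays it ran from 4.81 to 5.57. The signal of this rat was 14.5 times that of the mean of the other control males. Mx1, an antiviral GTPase, was at 8.47 in this rat and between 4.54 and 5.69 on the other 29 arrays, which was 13.7 times the mean of the other control males. Oas1i, of the family whose members make the oligoadenylates that activate RNase L, was at 8.20 against 3.89 to 5.70. Irf9, the DNA-binding part of the type I interferon complex, was at 8.16 against 5.28 to 6.36. The ubiquitin-like Isg15 was at 5.78 against 3.53 to 4.33, and below the array median on each of the other 29 arrays. For each of these genes the signal of this rat lay clear of all others, and the other control males did not stand out from the remaining groups.

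**Figure D1:**
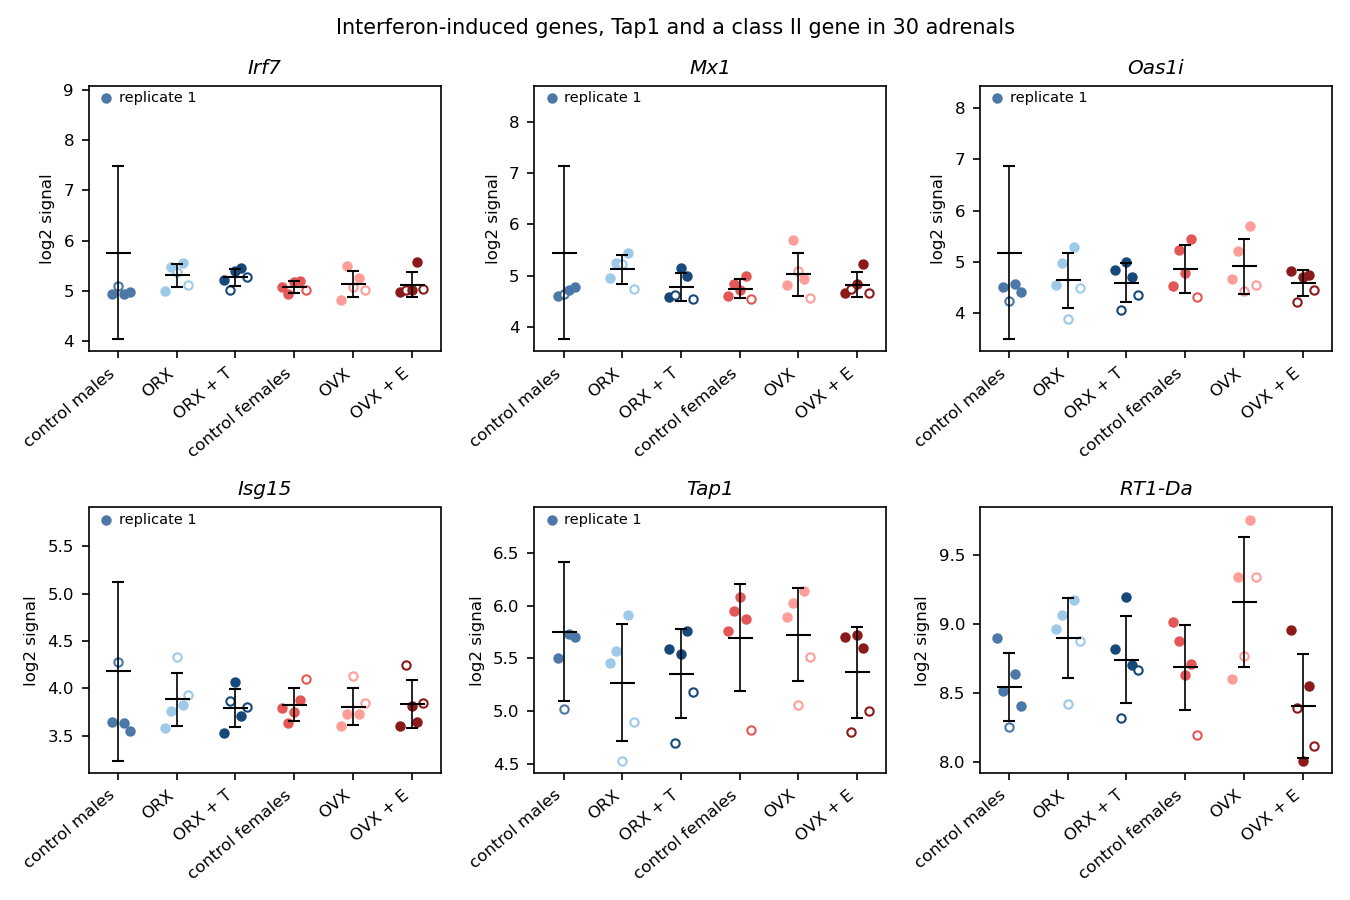
Log2 signal of Irf7, Mx1, Oas1i, Isg15, Tap1 and RT1-Da in each of 30 rats by group (5 per group), with the group mean and SD as a bar and whiskers, and open symbols for the 10 arrays with compressed signals. Control males replicate 1 lay at 8.84 for Irf7 and at 8.47 for Mx1, where no other rat exceeded 5.57 and 5.69, whereas its RT1-Da signal of 8.90 lay within the range of the other rats.

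In this rat 12 of the 84 genes (14.3%) lay more than 1 log2 unit above the next highest of the 30 arrays. On every other array this count was 0. Among all 14557 genes it was 25 (0.172%) in this rat and 0 to 26 on the other arrays, with 26 on ORX replicate 3, a compressed array. Besides those named above, the 12 genes were Oas1b, Oasl, Oasl2, Ifih1 (a sensor of double-stranded RNA), Ifit3, Ifi27l2b and the class I gene RT1-S3, with signals 2.98 to 11.7 times the mean of the other control males. The other 13 genes over this limit were no members of the set, and 7 of them were on the lists of pathway genes, among them Usp18, which removes Isg15 from proteins (6.94 against 3.40 to 3.96), and the antiviral Rsad2 (6.53 against 3.98 to 4.58). These genes outside the set were chosen after their values were seen. Of 24 measured interferon-induced genes on a list that did not use the symbols of the set, 20 were highest in this rat. Of all genes 2.29% were. The interferon genes themselves did not stand out, with Ifnb1 at 3.85 (3.75 to 4.26 on the other arrays) and Ifng at 3.85 (3.67 to 5.04). Both values lay below the median of this array (4.43), so these dim signals say little about their expression.

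The count of genes highest in this rat ran unevenly over the roles, a difference that was not tested. In control males replicate 1, 27 of the 84 genes (32.1%) had their highest signal of all 30 arrays, against 0 to 9 genes on any other array. Among all 14557 genes, 333 (2.29%) were highest in this rat, and 0.687% to 9.41% on the other arrays. These were 4 of 7 GTPases, 8 of 16 other interferon-induced genes, 5 of 10 Oas genes, 2 of 4 peptide suppliers, 2 of 9 IRF genes, 5 of 23 class I genes and 1 of 6 STAT factors, and 0 of 9 class II genes. The median difference from the other control males was 0.34 for class II genes, 0.34 for all 84 genes, 0.16 for class I genes and 0.04 for all genes, so class II genes were also above the other control males without being highest of all arrays. Tap1, which carries peptides to class I, was at 6.82 (4.53 to 6.14 on the other arrays), Psmb8, an immunoproteasome subunit, at 8.93 (6.85 to 8.63), and Stat2, which pairs with Irf9, at 8.92, above all other arrays. Psmb9 and Tap2, at 8.39 and 5.38, were within the range of the other arrays. In the same rat 6 of 11 macrophage markers were highest of all arrays, with a median of 0.62 above the other control males. Of 6 pan-leukocyte markers 1 was highest (median 0.46). None of 13 T and NK cell markers and of 5 B cell markers was highest, but many of these were dim. Cd3d, Cd3e, Prf1 and Ms4a1 lay below the array median on all 30 arrays, and such probe sets could hardly report these cells. The part of macrophages or other leukocytes in this pattern was not tested. The interferon motif was found in 15 of the 23 genes with a window that were highest in this rat, and in 6 of the other 50. The comparisons with control males below are given with and without this rat.

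**Figure D2:**
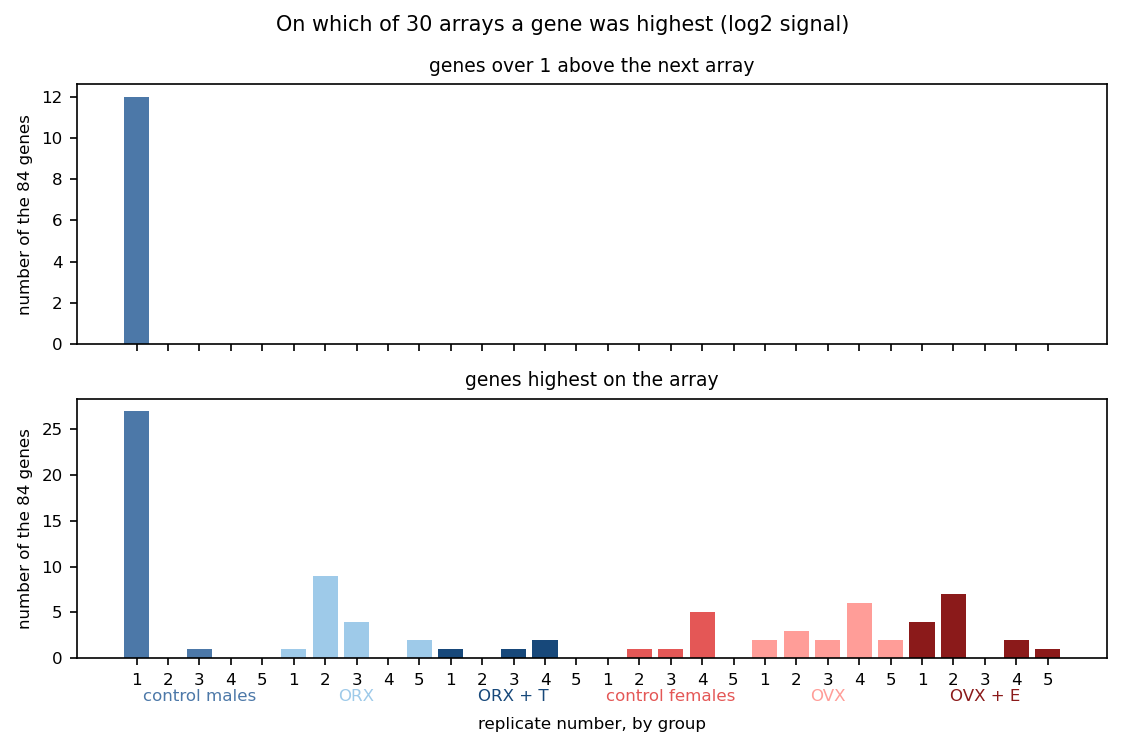
Bars give, for each of the 30 arrays (x axis, replicate number by group), how many of the 84 genes lay more than 1 log2 unit above the next highest array (top) and how many were highest on that array (bottom). Control males replicate 1 held 12 and 27 genes, and no other array held more than 0 and 9.

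The genes varied more between rats of a group than most genes did. The median SD within groups was 0.40 over the 84 genes and 0.25 over all genes, and it was 0.34 for the 84 genes without control males replicate 1. For the Oas genes the median SD was 0.40 with that rat and 0.25 without it, whereas it was 0.33 and 0.32 for class II genes and 0.42 in either case for STAT factors. Gbp6, a guanylate-binding protein, ranged widely also without that rat, from 4.61 to 6.36 in control females and from 5.73 to 7.82 in ORX.

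Estradiol replacement was compared with ovariectomy alone to ask which of these genes responded to the hormone. Ifi47, an interferon gamma-induced immunity-related GTPase, rose in OVX + E glands, and RT1-Ba, the alpha chain of the class II molecule RT1-B, fell. With limma, 2 of the 84 genes (2.38%) passed an adjusted p of 0.05, 1 up (0.316% of all genes) and 1 down (1.37% of all genes), and 1.69% of all genes did in either direction, so the share was near that of the array as a whole. At an additional 2-fold limit Ifi47 alone passed (0.9% of all genes). Without adjustment 14 of the 84 genes (16.7%) and 10.3% of all genes had p under 0.05. The median log2 fold change was -0.13 over the 84 genes and 0.02 over all genes.

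Ifi47 (Entrez Gene 246208) was at log2 signals of 9.91, 9.46, 9.78, 9.83 and 9.46 in OVX + E and at 8.96, 8.77, 8.20, 8.61 and 8.31 in OVX. All 5 values with estradiol lay above all 5 without. The log2 fold change was 1.12 (SE 0.18, adjusted p = 0.000292 by limma, and p = 0.00794 in an exact two-sided permutation test, the smallest that 5 against 5 allows). Control females, at 9.01, 9.31, 9.50, 8.97 and 8.57, lay between these groups and overlapped with both. OVX differed from control females by -0.50 (SE 0.18, adjusted p = 0.787) and OVX + E by 0.62 (SE 0.18, adjusted p = 0.323), neither of which passed the limma test, although each passed in 2 of 22 alternative settings. In males the signal was 9.11, 8.78, 9.12 and 9.13 in controls without replicate 1, which was at 9.91, between 8.81 and 9.42 in ORX and between 8.88 and 9.23 in ORX + T. The increase with estradiol kept its call in all 22 alternative settings, with log2 fold changes of 1.02 to 1.22 and adjusted p up to 0.00795. None of the other 6 GTPases passed the test in OVX + E against OVX, and their log2 fold changes lay from -0.37 to 0.08.

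**Figure D3:**
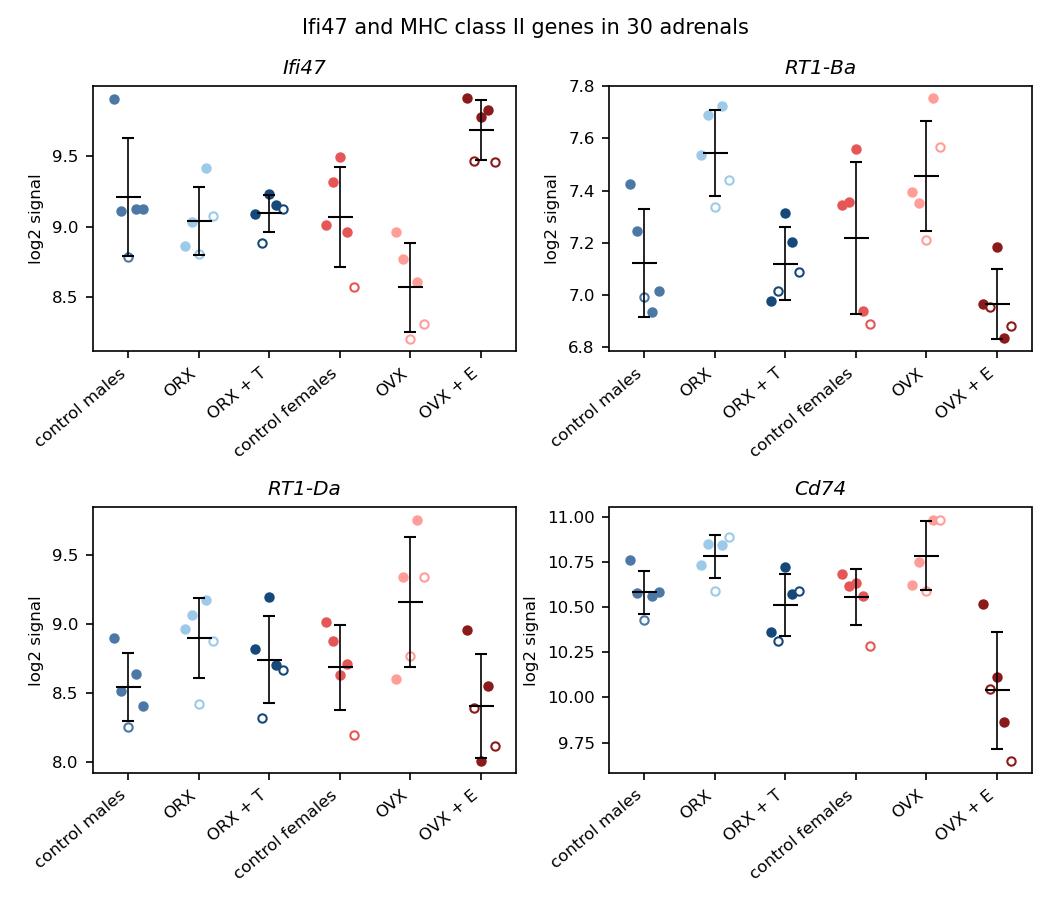
Log2 signal of Ifi47, of the class II genes RT1-Ba and RT1-Da and of the invariant chain gene Cd74 in each of 30 rats by group (5 per group), with the group mean and SD, and open symbols for the 10 arrays with compressed signals. Ifi47 lay between 9.46 and 9.91 in OVX + E and between 8.20 and 8.96 in OVX, while RT1-Ba and Cd74 in OVX + E lay below all values of OVX.

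RT1-Ba (Entrez Gene 309621) was at 6.96, 6.95, 7.18, 6.83 and 6.88 in OVX + E and at 7.39, 7.35, 7.21, 7.76 and 7.57 in OVX, so the groups did not overlap. The log2 fold change was -0.49 (SE 0.13, adjusted p = 0.0394 by limma, exact two-sided permutation p = 0.00794). This call was close to the threshold. It was lost without OVX replicate 1, 2, 4 or 5 and without OVX + E replicate 1, 2, 4 or 5, with log2 fold changes of -0.52 to -0.42 and adjusted p from 0.0626 to 0.154, and in 13 of 22 alternative settings in all, although the sign was the same in every one. RT1-Da, the alpha chain of RT1-D, was at 8.96, 8.39, 8.01, 8.55 and 8.12 in OVX + E and at 8.60, 9.34, 8.77, 9.76 and 9.34 in OVX, a difference of -0.76 (SE 0.21, adjusted p = 0.0626) that did not pass, although it passed in 8 of 22 alternative settings (adjusted p from 0.0084 to 0.364). The groups overlapped in this gene through OVX + E replicate 1. RT1-Bb, the beta chain of RT1-B, differed by -0.67 (SE 0.31, adjusted p = 0.456), and RT1-DMb, part of the DM molecule that loads peptides, by -0.52 (SE 0.24, adjusted p = 0.453).

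All 9 class II genes lay below 0 in OVX + E against OVX, with a median log2 fold change of -0.44 and a range of -0.76 to -0.06, and with 1 of them, RT1-Ba, past the test. They were 9 of 9 below 0 also after median centring, after quantile normalization and without the 10 compressed arrays, with medians of -0.48, -0.37 and -0.31. Of the 9, RT1-DOa and RT1-Db2 lay below the array median on all 30 arrays and RT1-DOb on 23, so their signs carry little weight. Class I genes were divided, 10 above and 13 below 0 (median -0.04), and many of them were dim. Of those above the array median on all arrays, only RT1-M3-1 had a higher mean in OVX + E (5.92, against 5.87 in OVX). The others of these were lower, such as RT1-CE1 (9.63 against 10.01) and RT1-CE4 (6.10 against 6.40), although RT1-T24-2 hardly differed. Of all class I genes, 0 passed. Among 21 measured genes of antigen presentation outside the set, 0 lay above 0 and 1, Cd74, fell. Cd74, the invariant chain that guards the class II groove, was named after its values were seen. It lay between 9.65 and 10.52 in OVX + E and between 10.59 and 10.99 in OVX, with no overlap. The difference was -0.75 on the log2 scale (SE 0.12, limma adjusted p = 0.000385), and the call was lost in 1 setting, a fit to these 10 arrays alone (adjusted p = 0.0806). In control females Cd74 ran from 10.29 to 10.68, which overlapped with OVX + E.

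Markers of several other cell types, but not of all, also lay lower. In OVX + E against OVX, 10 of 11 macrophage markers lay below 0 (median -0.39) and 0 passed the test. Their mean signal per rat ran from 5.88 to 6.41 in OVX + E and from 6.20 to 6.72 in OVX. All 8 endothelial markers (median -0.45) and all 7 chromaffin cell markers (median -0.33) lay below 0 as well, and 0 of either passed. Pan-leukocyte markers were 5 of 6 below 0 (median -0.27), capsule and fibroblast markers 7 of 8 (median -0.26) and B cell markers 4 of 5 (median -0.08), and 0 of these passed. Dendritic cell markers had 4 of 7 above 0 (median 0.01) and T and NK cell markers 5 of 13 (median -0.02), but many of these probe sets were dim, with Cd209a below the array median on 30 arrays and Xcr1 on 29, and could hardly have shown a lower level. Of 6 cortical cell markers 2 lay above 0 (median -0.04) and 1, Cyp11b2, fell. Neutrophil markers were 6 of 6 above 0 (median 0.11) and adipocyte markers 4 of 6 (median 0.04), and 0 of either passed. Among the neutrophil markers S100a8 lay below the array median on 30 arrays and Elane on 29. The part of these cell types in the values of the class II genes was not tested.

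**Figure D4:**
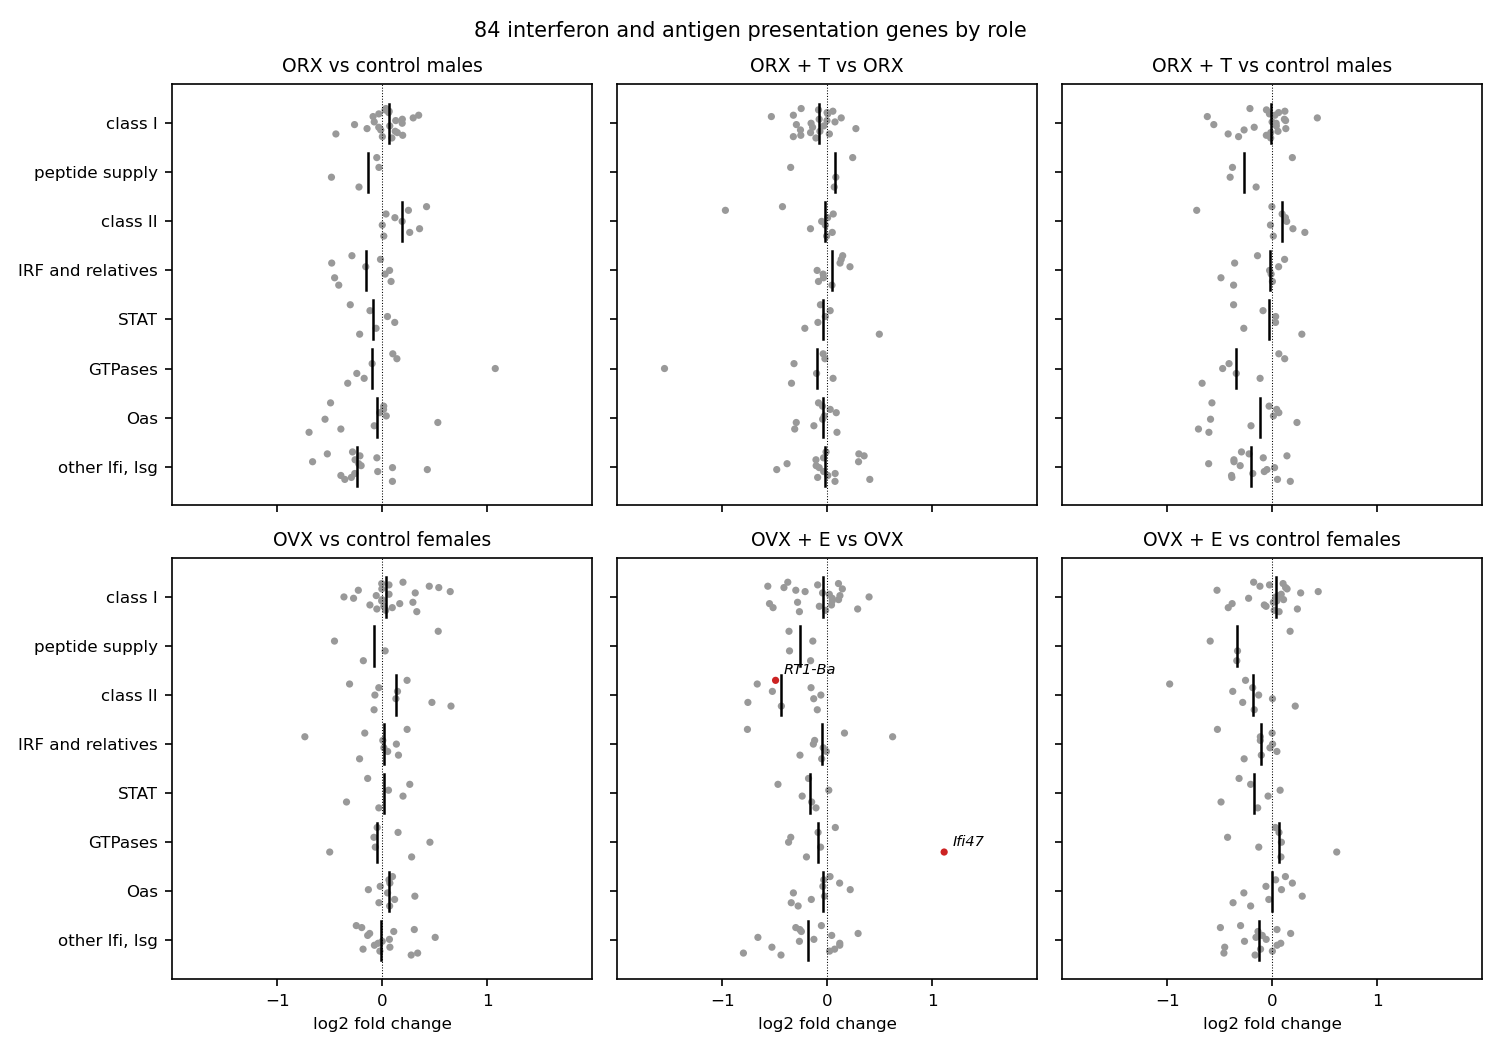
Each point is the log2 fold change (x axis) of 1 of the 84 genes in 1 of 6 comparisons, in rows by role, with the median of the role as a bar, and genes past an adjusted p of 0.05 in red. Ifi47 and RT1-Ba in OVX + E vs OVX were the only genes past the limit, and all 9 class II genes lay below 0 there.

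The other roles in OVX + E against OVX held no gene past the test. The 4 peptide suppliers lay below 0, Psmb8 at -0.36, Psmb9 at -0.14, Tap1 at -0.36 and Tap2 at -0.16, with adjusted p from 0.786 to 0.935. Psmb8 was at 7.49 to 7.76 in 4 OVX + E rats and at 8.48 in replicate 1. Of 9 constitutive proteasome subunits, 7 lay above 0 (median 0.06). Stat2 differed by -0.18, Irf9 by -0.05, Irf7 by -0.01, Mx1 by -0.20, Oas1i by -0.32 and Isg15 by 0.02, each with an adjusted p above 0.9 in limma. For class I, RT1-CE1 had a log2 fold change of -0.38 (SE 0.13, limma adjusted p = 0.179), and RT1-CE12, named after its values were seen, did not overlap between the groups (6.66 to 7.04 against 7.14 to 7.88, log2 fold change -0.57, adjusted p = 0.155). The dim probe sets RT1-T24-1 and RT1-M1-4, below the array median on all 30 arrays, differed by 0.29 and 0.02. In total 3 of the 84 genes (3.57%) did not overlap between OVX + E and OVX, and 2.29% of all genes did not.

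Ovariectomy alone moved none of these genes past the test. In OVX against control females 0 of 84 genes passed in limma (0.165% of all genes did). There 6 had an unadjusted p under 0.05 (7.14%, against 3.93% of all genes), and in 0 of 84 did the groups not overlap (0.886% of all genes). The class II beta chain RT1-Db1 had the lowest p among them (log2 fold change 0.66, SE 0.20, adjusted p = 0.402), and RT1-Da was higher by 0.47 on average (SE 0.21). Class II genes were divided, with 5 of 9 above 0 and a median of 0.13. In OVX + E against control females 0 of 84 passed as well (0.234% of all genes did), and 5 had an unadjusted p under 0.05 (5.95%, against 4.65% of all genes). Among these 5 were Ifi47, RT1-Bb (log2 fold change -0.98, SE 0.31, adjusted p = 0.443) and Psmb9 (-0.59, SE 0.24, adjusted p = 0.866). Psmb9 ran from 6.90 to 8.45 in OVX + E and from 7.84 to 8.60 in control females, so the groups overlapped. RT1-Ba differed from control females by 0.24 in OVX and by -0.25 in OVX + E, and in 0 of 84 genes, RT1-Ba included, did OVX + E not overlap with control females (0.694% of all genes).

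Testosterone replacement was compared with orchiectomy alone in the same way. None of the 84 genes passed in ORX + T against ORX in limma, where 2.05% of all genes did. An unadjusted p under 0.05 was found in 5 (5.95%, against 7.93% of all genes), all of them lower with testosterone. Gbp6 was at 6.02, 4.75, 5.51, 4.76 and 4.84 in ORX + T and at 5.73, 7.82, 6.83, 7.27 and 5.99 in ORX, and the groups overlapped through ORX + T replicate 1. ORX + T lay below ORX by a log2 fold change of -1.55 (SE 0.44, limma adjusted p = 0.0711), and it passed in 7 of 22 alternative settings, among them without ORX replicate 1 (-1.80, adjusted p = 0.0334) and without ORX + T replicate 1 (-1.76, adjusted p = 0.0498). RT1-Ba and RT1-Bb did not overlap between ORX + T and ORX, 2 of 84 genes (2.38%) against 2.91% of all genes. RT1-Ba was at 6.98, 7.02, 7.31, 7.20 and 7.09 with testosterone and at 7.54, 7.69, 7.34, 7.72 and 7.44 without, lower by a log2 fold change of -0.43 (SE 0.13, limma adjusted p = 0.0936). RT1-Bb was at 6.14, 5.76, 5.80, 6.38 and 6.25 with testosterone and at 6.78, 7.67, 6.90, 7.18 and 6.63 without (log2 fold change -0.97, SE 0.31, adjusted p = 0.147), and it also lay below all control males (-0.72, adjusted p = 0.778), the 1 of 84 genes (2.34% of all genes) whose groups did not overlap in ORX + T against control males. The chains of RT1-B thus had lower mean signals with either hormone than after gonadectomy, and RT1-Ba with estradiol passed, in a call lost in 13 of 22 alternative settings. With testosterone RT1-Bb passed in 5 of 22 settings (adjusted p from 0.00879 to 0.408) and RT1-Ba in 2 (adjusted p from 0.0028 to 0.485). Class II genes as a group had a median of -0.02 with testosterone, with 3 of 9 above 0. Macrophage markers had a median of -0.01, with 4 of 11 above 0. Pan-leukocyte markers had 1 of 6 above 0 (median -0.12) and T and NK cell markers 2 of 13 (median -0.10). B cell markers had 1 of 5 above 0 (median -0.09), neutrophil markers 1 of 6 (median -0.11) and dendritic cell markers 2 of 7 (median -0.04). In these 5 lists 0 passed, and many of their probe sets were dim. All 8 capsule and fibroblast markers lay above 0 (median 0.40) and 2 of them, Dcn and Postn, rose. The part of these cells in the RT1 values was not tested. Among the listed genes outside the set, Tlr3, the endosomal receptor of double-stranded RNA, rose with testosterone (7.88 to 8.43 in ORX + T and 6.16 to 7.54 in ORX, log2 fold change 1.17, SE 0.28, adjusted p = 0.0154). So did the macrophage marker Cd14 (1.34, SE 0.21, adjusted p = 0.000186). Of 24 other interferon-induced genes, 0 passed with testosterone (median -0.03) and 0 with estradiol (median -0.03).

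The comparisons with control males depended on replicate 1. In ORX against control males 0 of 84 genes passed in limma (0.055% of all genes did), and 0 of 84 genes did not overlap between the groups (0.969% of all genes). There 3 had an unadjusted p under 0.05 (3.57%, against 4.72% of all genes). RT1-Ba was among the 3, at 7.43, 7.24, 6.99, 6.93 and 7.01 in control males, and ORX lay above control males by 0.42 on the log2 scale (SE 0.13, limma adjusted p = 0.412). With all rats 39 of 84 genes lay above 0 and the median was -0.03. Without control males replicate 1, 61 lay above 0 and the median was 0.10, while the median of all genes was 0.01. Mx1 changed from -0.33 to 0.43, Irf7 from -0.45 to 0.32 and Oas1i from -0.54 to 0.21, each with an adjusted p of 1 without that rat. The 9 class II genes lay above 0 with all rats (median 0.19), and 8 of 9 did without that rat (median 0.22), but the count was 6 after median centring and 7 after quantile normalization. The dim RT1-DOa, RT1-DOb and RT1-Db2 are among the 9. In ORX + T against control males 0 of 84 passed in limma (0.941% of all genes did), and 3 had an unadjusted p under 0.05 (3.57%, against 5.16% of all genes). There 33 of 84 genes lay above 0 with all rats and 54 without replicate 1.

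Between the sexes, 0 of 84 genes passed in control females against control males in limma (0.433% of all genes did), with 3 at an unadjusted p under 0.05 (3.57%, against 4.01% of all genes). The class I gene RT1-T24-2, named after its values were seen, was the only gene of the set whose groups did not overlap (1.19%, and 1.02% of all genes), with 5.13 to 5.28 in females and 5.36 to 5.65 in males (log2 fold change -0.31, SE 0.10, adjusted p = 0.403). Class II genes were 9 of 9 above 0 (median 0.14, and 0.18 without control males replicate 1), with 8 of 9 after quantile normalization, and these 9 include the dim RT1-DOa, RT1-DOb and RT1-Db2. Over all 84 genes 35 lay above 0, and 61 without that rat. The response to hormone replacement differed between the sexes in 1 of 84 genes (1.57% of all genes), Ifi47. Its log2 fold change was 1.12 with estradiol and 0.06 with testosterone (SE 0.18 each), a difference of 1.06 (SE 0.26, adjusted p = 0.0261). The call was lost without OVX replicate 3 or 5, OVX + E replicate 1, ORX replicate 4 or 5, or ORX + T replicate 2, with differences of 0.96 to 1.05 and adjusted p from 0.0502 to 0.0615. The response to gonadectomy differed between the sexes in 0 of 84 genes in limma (0.00687% of all genes), with 2 at an unadjusted p under 0.05 (2.38%, against 2.14% of all genes). There 55 of 84 genes lay above 0 with all rats and 33 without control males replicate 1. Over the 6 groups together, limma's F-test called Ifi47 (adjusted p = 0.00505) and RT1-Ba (adjusted p = 0.0203), 2 of 84 genes where 4.25% of all genes passed.

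RT1 genes also differed between rats of the same group. All 32 RT1 genes of the set lie on chromosome 20 in the reference. RT1 alleles are known to differ among rat stocks, Wistar is an outbred stock, and near-identical RT1 copies can share probes, so a signal may depend on the allele or on a neighbour. For the 14 RT1 genes above the array median on all arrays, the deviations from the group means were correlated over the 30 rats in 91 pairs. P values came from 100000 permutations, with adjustment over the pairs. The permutations ran over all 30 rats and not within groups, although the deviations sum to 0 in each group. These permutation p values are therefore likely too small, and pairs near the limit carry little weight. There were 40 pairs (44%) with r above 0 and 2 (2.2%) with r below 0 at an adjusted p under 0.05, the smallest r among them being 0.43 in size. Among all pairs of the 5638 genes above the array median on all arrays, 84.2% had an r at least that high and 2.89% one at least that low, so neither share was above that of other bright genes. The median r was 0.36 over the RT1 pairs and 0.78 over all bright pairs, and 0.21 and 0.27 on the 20 wide arrays. Of the 40 pairs, 8 had an r under 0.2 on the wide arrays, such as RT1-DMb with RT1-M3-1 (0.64 on all arrays and 0.04 on the wide ones). RT1-Bb and RT1-Db1, the beta chains of RT1-B and RT1-D, ran against each other (Pearson r = -0.54, permutation p = 0.00201, adjusted p = 0.00704, and Spearman rho = -0.50, permutation p = 0.00521, adjusted p = 0.0164). The r was -0.40 without the 2 rats farthest from the median of RT1-Bb, -0.71 on the 20 wide arrays and -0.33 on the 10 compressed arrays. The other such pair was RT1-Db1 with the class I gene RT1-T24-2 (r = -0.48, permutation p = 0.00707, adjusted p = 0.0189, and rho = -0.46, permutation p = 0.0114, adjusted p = 0.029), with an r of -0.48 without the 2 farthest rats, -0.59 on the wide arrays and -0.19 on the compressed ones. RT1-Bb and the class I gene RT1-CE4 ran together (r = 0.69, permutation p = 5e-05, adjusted p = 0.000506, and rho = 0.69, permutation p = 6e-05, adjusted p = 0.000546), with r of 0.76, 0.73 and 0.38 in the same 3 checks. These pairs were chosen after their values were seen, and pairs that weakened on the wide arrays are counted above. The part of the array spread in single pairs was not tested beyond these values.

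**Figure D5:**
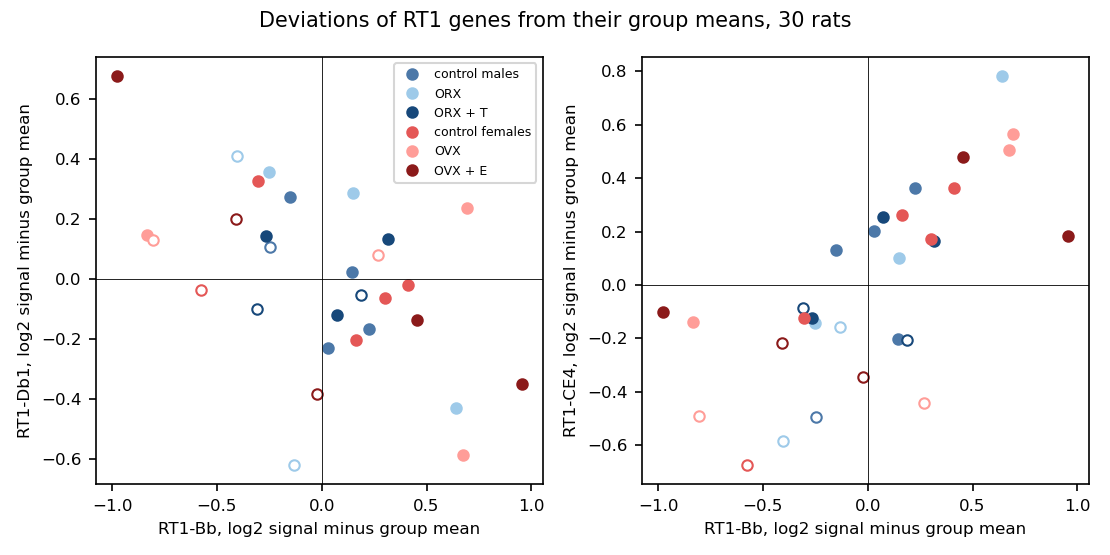
Deviation of RT1-Db1 (left) and RT1-CE4 (right) from the group mean (y axis, log2 signal) against that of RT1-Bb (x axis, log2 signal), 1 point per rat, coloured by group, with open symbols for the 10 arrays with compressed signals. Rats high in RT1-Bb tended to be low in RT1-Db1 (r = -0.54) and high in RT1-CE4 (r = 0.69) over 30 rats.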

How the data were processed

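The authors extracted RNA from whole adrenals, hybridized it to Affymetrix Rat Gene 2.1 ST arrays, and corrected, normalized and summarized the signals by RMA in the affy package. The deposited values are log2 signals of 36685 probe sets for 30 rats, from 2.81 to 12.82, with array medians of 4.36 to 4.63. The arrays differed in spread, and which were normalized together is not given in the sources used here. No further scaling was applied. Of the probe sets 14824 carry 1 gene symbol, 829 several and 21032 none, and 4 with several symbols that hold a symbol of the set were left out. Gene names came from the platform annotation, and all 84 genes matched RefSeq by Entrez number. Limma 3.58.1 (R 4.3.3) was fitted to all 14557 genes with 1 mean per group (24 residual degrees of freedom), with the Benjamini-Hochberg adjustment within each of 9 comparisons and the F-test over 6 groups. It was tested on simulated data. A gene passed at an adjusted p under 0.05, and the stricter rule of the authors, a fold above 2 as well, was an alternative. The replicate numbers were not taken as pairs. Named genes were those that passed, Psmb8, Psmb9, Tap1, Tap2, Stat2, Irf7, Irf9, Mx1, Isg15, Ifi47, RT1-Da and RT1-Ba whatever their values, the 2 brightest and 2 dimmest, and the 3 of largest SD within groups. RT1-Bb, RT1-CE12, RT1-T24-2, RT1-CE4, RT1-Db1, RT1-DMb, RT1-M3-1, Oas1b, Oasl, Oasl2, Ifih1, Ifit3, Ifi27l2b, RT1-S3 and the genes outside the set were named after their values were seen. The set, the gene lists and the tests were chosen with earlier results of these data known. Alternatives were fits to fewer arrays, an intensity trend, array weights, a replicate block, bright genes only, the mean over probe sets, 2 other scalings, the array spread as a covariate, and leaving out the 10 compressed arrays or each array in turn. Leaving out control males replicate 1 everywhere, and the settings for single roles and for genes named by their values, and the correlations of other bright genes were added after seeing the data.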

Additional observations from a re-analysis of the deposited data

Results flagged for a closer look

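For the 17 genes named by rule, each group of 5 rats was searched for a value far from the other 4, in 102 groups, where chance alone would give about 1 in 20. There were 10 such values. In control males replicate 1 stood above the rest in Irf7 (8.84, next 5.10), Mx1 (8.47, next 4.79), Oas1i (8.20, next 4.56) and Irf9 (8.16, next 6.20). In OVX + E, Irf7 was at 5.57 in replicate 4 (next 5.04) and Psmb8 at 8.48 in replicate 1 (next 7.76). The 4 others lay on arrays with compressed signals: Psmb9 at 7.84 in control males replicate 3 (next 8.24), Tap1 at 4.82 and Stat2 at 6.12 in control females replicate 5 (next 5.76 and 7.24), and RT1-M1-4 at 4.13 in OVX replicate 5 (next 3.60). The part of the compression in these values was not tested. Ifi47 is listed because its response to replacement differed between the sexes in limma's test of the difference, by 1.06 on the log2 scale (adjusted p = 0.0261).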

How the results depend on the processing

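The increase of Ifi47 with estradiol passed in all 22 alternatives. Counts of the 84 genes past the test were small and depended on the setting. With a 2-fold limit the count was 1 in OVX + E vs OVX and 1 over the 6 groups, and the same with an intensity trend (RT1-Ba, adjusted p = 0.138). Fitted to 1 sex it was 1 in ORX + T vs ORX and 1 in OVX + E vs OVX, and likewise 1 and 1 with the compared arrays only. With array weights it was 5 in ORX vs control males, 2 in ORX + T vs control males, 6 in ORX + T vs ORX, 4 in OVX vs control females, 9 in OVX + E vs OVX, 3 between control sexes, 2 for the sex difference in replacement and 18 over the 6 groups. With quantile normalization, in the same order and with OVX + E vs control females at 1 in place of OVX vs control females, it was 1, 2, 5, 1, 5, 1, 5 and 10. Without the 10 compressed arrays it was 1, 2, 3, then 1 in OVX vs control females, and 9, 1, 2 and 13. With the array spread as a covariate it was 3, 3, 7, then 3 in OVX vs control females and 1 in OVX + E vs control females, and 10, 1, 4 and 16, with 1 for the sex difference in gonadectomy. Median centring gave 1 in OVX + E vs OVX, 0 for the sex difference in replacement (Ifi47, adjusted p = 0.191) and 1 over the 6 groups, RT1-CE1. With the 60% brightest genes 1 passed in ORX + T vs ORX. Leaving out 1 array at a time gave 0 to 1 in ORX + T vs ORX, 1 to 3 in OVX + E vs OVX, 0 to 1 for the sex difference in replacement and 1 to 4 over the 6 groups, and 0 in the other comparisons. The shares of all genes in these settings are not given beside the counts. A higher count therefore does not tell whether the set moved more than other genes did. The cause of these differences was not tested.

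The sign turned in Mx1 (0.078 with array weights and 0.43 without control males replicate 1), Oas1i (0.0077 and 0.21) and Irf7 (0.32 without that rat) in ORX vs control males, and in Ifi47 in ORX + T vs ORX (-0.002 without ORX replicate 3). Leaving out 1 array at a time gave -0.54 to 0.43 for Mx1, -0.66 to 0.32 for Irf7, -0.78 to 0.21 for Oas1i and -0.002 to 0.15 for Ifi47. Median centring moved the genes above 0 from 30 to 46 of 84 in ORX + T vs ORX and from 39 to 29 in ORX vs control males. The replicate numbers were not taken to pair rats: deviations of same-numbered arrays correlated above 0.1 in 48 of 75 pairs (-0.76 to 0.87), and 10 of 30 arrays correlated best with their own number. With a replicate block 1 gene passed in ORX + T vs ORX (Gbp6, adjusted p = 0.0427), and RT1-Da passed in OVX + E vs OVX (adjusted p = 0.0434). Arrays carry no detection p, so dim probe sets have no floor here, and 5 rats per group limit what could be called.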
